A study of Mus musculus with 52 samples.

Results

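The interferon-stimulated genes described here were Ifit1, Ifit2, Ifit3, Irf7, Irf9, Oasl1, Oasl2, Rsad2, Usp18 and Stat2, followed in mouse liver from the untreated state to 3 months after partial hepatectomy. Of the probe sets annotated to one of these genes alone, the brightest on average over all arrays stands for the gene. All 10 listed genes were measured, among 18195 genes on the array, through 13 probe sets. Rsad2 had 3 of these and Stat2 had 2.

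Type I interferons bind a receptor whose kinases phosphorylate the transcription factor Stat2, which acts with Irf9 in a complex that binds interferon-stimulated response elements. Its target genes code for proteins that bind viral RNA, degrade it or block viral assembly, and for regulators that amplify or stop the response. Liver expresses such genes in hepatocytes and in resident macrophages, the Kupffer cells, and several of them are transcribed at a low level without infection.

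Expression was measured on single-colour oligonucleotide arrays of 52 liver samples from C57Bl6/N mice, labelled male, aged 8 to 12 weeks by the series' design text and fed a standard diet. The same age range stands for every group, so age at sampling in the late groups cannot be told from it. The untreated control group held 5 arrays. The operated groups had lost the larger part of the liver and were sampled after 6, 12 or 48 hours, 3 or 4 days, and 1 or 4 weeks with 4 arrays each, after 1 hour or 3 months with 3 each, after 24 hours with 11 and after 2 weeks with 2. These samples include no sham operation, the hour of day was not given, and the labels do not say whether each array came from a different mouse, so that a p-value here weighs a difference against the scatter of arrays, which may be technical. Values are on the log2 scale after robust multi-array averaging (RMA), a difference of 1 being a 2-fold change, and a gene is said to have risen or fallen where limma's Benjamini-Hochberg adjusted p over all genes was under 0.05. Since all comparisons with control share the same 5 control arrays, they are not independent of each other.

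The hepatocyte markers Alb, Ttr, Apoa1, Apoa2, Fgb and Ahsg had means between 12.86 and 13.99 over all arrays, and array medians lay between 3.89 and 4.10. Several arrays stood apart. The 24-hour replicates 9, 10 and 11 had Xist values of 9.12 to 9.48, against 2.51 to 3.81 elsewhere, although labelled male. Replicate 1 of the 4-week group had a correlation of 0.94 to the mean of the 12-hour arrays but -0.50 to the other 4-week arrays. For replicate 4 of the 1-week group these were 0.38 to the 12-hour mean and -0.28 to the other 1-week arrays. Control replicate 1 and 24-hour replicate 1 had differences of 2.56 and 2.32 between the 3′ and 5′ Gapdh probe sets. These 7 arrays are called the doubted arrays, and results that rest on them are given with and without them. Some arrays outside the 7 also had low correlations to their own group and were kept throughout. Among them were 3-day replicate 2, at 0.13, and 24-hour replicates 2 and 5, at 0.20 each. The latter had correlations of 0.57 and 0.55 to the mean of the 48-hour arrays. Hybridization controls averaged 10.85 in the control group and 9.73 to 10.38 in the operated groups. The mean 3′ to 5′ Gapdh difference was 1.61 in the control group and 0.65 to 1.10 in the operated groups, so that both measures move with every comparison against control, and their part in the results was not tested beyond fits with each as a covariate.

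Between 1 and 6 hours after hepatectomy 4 of the 10 genes fell, and 2 of these 4, Usp18 and Oasl1, rose again between 12 and 24 hours. Against control, none of the 10 had risen at 6 or 12 hours, while 3 had fallen at 6 hours (22% of all genes were called, 10.5% as lower) and 4 at 12 hours (29.9%, 12% as lower). The median change of the 10 genes against control was 0.13 at 1 hour, -0.62 at 6 hours, -0.95 at 12 hours and -0.21 at 24 hours, where the median of all genes lay between -0.04 and 0.01. By the F test over the 11 times, each of the 10 genes differed from control at some time, with adjusted p between 0.000862 for Stat2 and 0.0411 for Oasl2. That test called 64.6% of all genes. In whole liver, fewer cells of a type and less RNA per cell cannot be told apart.

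**Figure D1:**
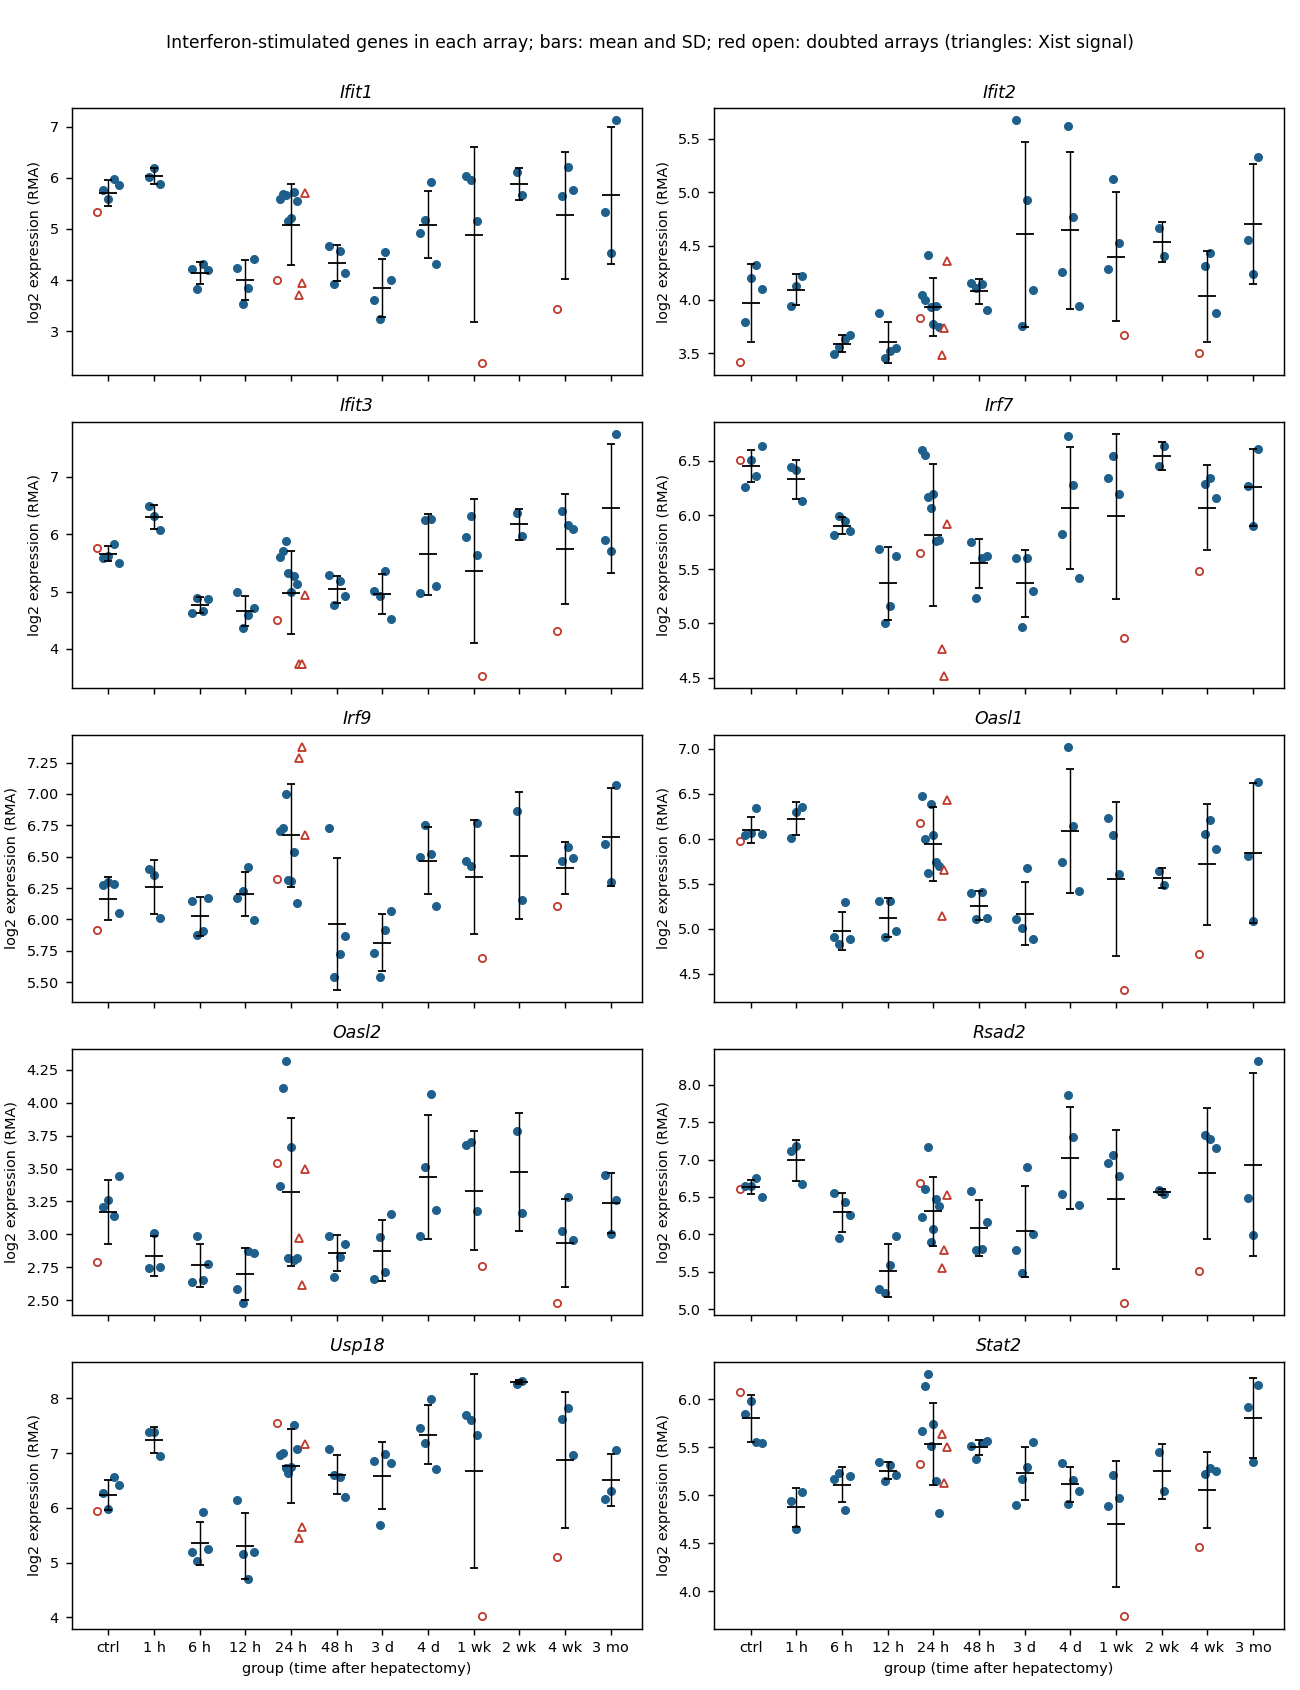
The log2 expression of each of the 10 genes (vertical axes, one panel per gene, own scale) in every array of the 12 groups (horizontal axis). Bars give mean and SD, and red open symbols mark the 7 doubted arrays, triangles being those with Xist signal. For Ifit1, the 4 arrays at 6 hours sit between 3.83 and 4.32, below the 3 arrays at 1 hour, which sit between 5.88 and 6.20.

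The step from 1 to 6 hours asked whether the genes changed within the early phase. The control arrays do not enter its means, but they enter the estimate of spread that all groups share. Usp18, Ifit1, Ifit3 and Oasl1 fell, none rose, and the other 6 did not pass the test. The 4 that fell stand against 10.9% of all genes called in this step, 6.44% of all genes having fallen. The median change of the 10 genes was -0.60, and of all genes -0.02. For 7 genes every 6-hour array lay below every 1-hour array, a pattern that 19% of all genes showed in this direction. The ranges of Irf9, Oasl2 and Stat2 overlapped.

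Usp18, which removes the ubiquitin-like protein Isg15 from its targets and holds back signalling at the interferon receptor, read 7.38, 7.38 and 6.96 at 1 hour and 5.20, 5.03, 5.93 and 5.25 at 6 hours. Its mean changed from 7.24 to 5.35, a fall by 1.89 ± 0.56 (SE; 3 and 4 arrays) on the log2 scale with an adjusted p of 0.0194. Ifit1, whose protein binds viral RNA that lacks host cap methylation, read 6.02, 6.20 and 5.88 at 1 hour and 4.22, 3.83, 4.32 and 4.20 at 6 hours. Its change was -1.89 ± 0.60 (SE), with an adjusted p of 0.0306. Both genes had every 6-hour value at least 1 log2 unit below the lowest 1-hour value.

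Ifit3, a partner of Ifit1 in the same RNA-binding family, read 6.49, 6.31 and 6.07 at 1 hour and 4.63, 4.89, 4.66 and 4.88 at 6 hours. The change was -1.52 ± 0.49 (SE), with an adjusted p of 0.0327. Oasl1, which resembles the oligoadenylate synthetases and is known to hold back translation of Irf7 in mice, read 6.01, 6.30 and 6.35 at 1 hour and 4.91, 4.83, 5.29 and 4.89 at 6 hours. It fell by 1.24 ± 0.34 (SE), the smallest change of the 4 that passed and the one with the lowest adjusted p, 0.0117.

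Among the genes that did not pass in this step, the change was -0.70 for Rsad2, -0.51 for Ifit2, -0.43 for Irf7, -0.23 for Irf9, -0.07 for Oasl2 and 0.24 for Stat2. Adjusted p-values ranged from 0.399 for Rsad2 to 0.954 for Oasl2. The other Rsad2 probe sets gave -0.76 and -0.52 and the other Stat2 probe set -0.02, none of them past the threshold.

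The count of genes that fell in this step depended on single arrays. Without 1-hour replicate 2 none of the 4 was called, without 1-hour replicate 1 or 3 only 1 was, and without 6-hour replicate 2 only 1 was, while without 6-hour replicate 1 or 4 there were 2. The sizes moved less: with any 1 array left out, the change of Usp18 stayed between -2.08 and -1.78 and that of Ifit1 between -1.97 and -1.78 on the log2 scale. Without the 7 doubted arrays, none of which belongs to these groups but which enter the shared estimate of spread, the same 4 genes were called, Usp18 with an adjusted p of 7.4e-06. Fitting the 1-hour and 6-hour groups alone, with a separate estimate of spread, called 7. The share of all genes called in that fit is not given here.

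**Figure D2:**
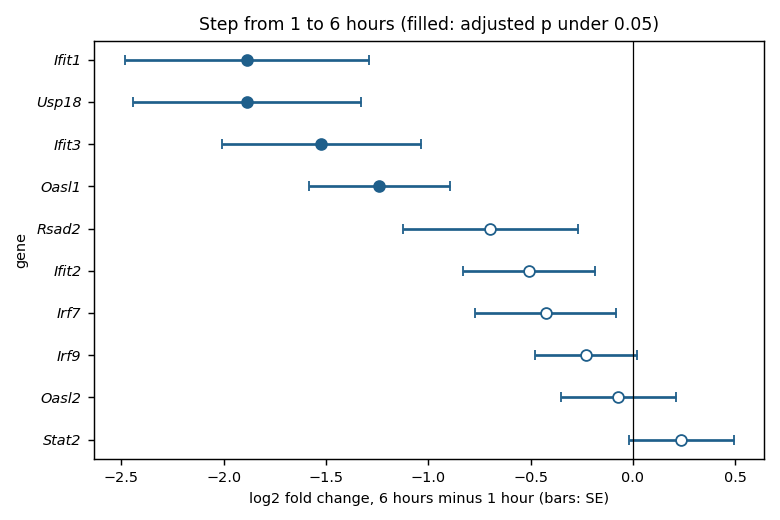
Log2 fold change of the 10 genes from 1 to 6 hours (horizontal axis, 6 hours minus 1 hour; bars are SE from the limma fit), ordered by size. Filled points are the 4 genes past the threshold, Usp18, Ifit1, Ifit3 and Oasl1, and Stat2 is the gene with a positive value, 0.24.

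Promoter sequence was examined because the response element is the site these genes are known for. RefSeq windows on GRCm38.p6, from 250 bases before to 50 after a start site, were found for 9 of the 10 genes, all but Usp18. The core letters GAAA, any 2 bases, then GAAA again were searched on both strands (TTTC, any 2 bases, TTTC on the other), and occurred in windows of 4 genes: Ifit1 and Ifit3 had 2 matches each, Rsad2 and Stat2 had 1. Of all 32851 windows 3.44% held a match, and of all genes with a window 3.99% did. The letters TTCNNNGAA, the core of the gamma-activated site, which read the same on both strands, occurred in the window of Ifit2 alone among the 9 genes, against 8.3% of all windows and 9.55% of all genes with a window. The upstream parts of the 4 windows are given 5′ to 3′ along the gene's strand, with the matched letters in capitals, to show where the element lies in genes that fell (Ifit1, Ifit3) and in 2 that did not pass in the step (Rsad2, Stat2). They are chr19:34640639-34640888 (plus strand) for Ifit1, chr19:34583279-34583528 (plus strand) for Ifit3, chr12:26456453-26456702 (minus strand) for Rsad2 and chr10:128270248-128270497 (plus strand) for Stat2.
Ifit1: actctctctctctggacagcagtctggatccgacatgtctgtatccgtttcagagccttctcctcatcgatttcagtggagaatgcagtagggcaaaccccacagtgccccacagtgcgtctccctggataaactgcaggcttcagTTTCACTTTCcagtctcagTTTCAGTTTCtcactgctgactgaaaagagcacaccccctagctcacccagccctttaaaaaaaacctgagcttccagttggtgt
Ifit3: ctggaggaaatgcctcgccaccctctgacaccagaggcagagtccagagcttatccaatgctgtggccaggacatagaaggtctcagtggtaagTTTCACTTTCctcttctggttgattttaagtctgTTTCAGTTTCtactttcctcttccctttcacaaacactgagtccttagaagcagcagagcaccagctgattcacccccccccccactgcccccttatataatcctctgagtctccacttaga
Rsad2: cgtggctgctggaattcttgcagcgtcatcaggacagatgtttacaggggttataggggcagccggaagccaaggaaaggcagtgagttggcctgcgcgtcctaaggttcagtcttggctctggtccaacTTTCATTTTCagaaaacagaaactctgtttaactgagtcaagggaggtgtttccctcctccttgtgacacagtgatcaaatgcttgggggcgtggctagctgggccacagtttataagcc
Stat2: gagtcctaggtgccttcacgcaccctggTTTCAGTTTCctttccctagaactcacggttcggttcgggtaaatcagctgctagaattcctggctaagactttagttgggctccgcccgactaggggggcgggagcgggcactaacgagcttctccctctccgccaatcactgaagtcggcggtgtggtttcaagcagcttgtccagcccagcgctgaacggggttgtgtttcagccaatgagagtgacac

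The first bases of the matches lay 104 and 85 bases upstream of the start site in Ifit1, 156 and 122 in Ifit3, 120 in Rsad2 and 222 in Stat2. Oasl1, which fell in the step, had no match in its window. A match is a description of these letters and not of a bound site.

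The signalling members came first in the order of the pathway. Stat2, the part of the complex that activates transcription, read 6.07, 5.85, 5.98, 5.55 and 5.55 in control and 4.94, 4.64 and 5.03 at 1 hour. It was thus below every control array at 1 hour, a pattern that 7.79% of all genes showed. It was the one member called there, against 5.04% of all genes. The change was -0.93 ± 0.25 (SE), with an adjusted p of 0.0186. At 6 hours it read 5.17, 5.23, 4.84 and 5.20, a change of -0.69 with an adjusted p of 0.0215. Stat2 was also the one member that had fallen at 4 days (-0.69, adjusted p = 0.0171, 32.8% of all genes called), at 1 week (-1.10, adjusted p = 2e-04, 36.7% called) and at 4 weeks (-0.74, adjusted p = 0.0208, 14.7% called).

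The Stat2 calls rested on its brighter probe set. The other Stat2 probe set, whose mean over all arrays was 4.12 against a median control level over all genes of 4.04, gave -0.39 at 1 hour (adjusted p = 0.335), -0.41 at 6 hours (adjusted p = 0.121) and -0.19 at 1 week (adjusted p = 0.447). It gave -0.04 at 3 days (adjusted p = 0.876), -0.11 at 4 days (adjusted p = 0.689) and -0.27 at 4 weeks (adjusted p = 0.374). With the hybridization controls as a covariate, none of the Stat2 comparisons at 1 or 6 hours, 3 or 4 days, and 1 or 4 weeks passed, with adjusted p between 0.141 and 0.666. The 1-hour call was also lost without control replicate 1 or 1-hour replicate 1 or 2, the 6-hour call without control replicate 1 or 3 or 6-hour replicate 3, the 4-day call without control replicate 1 or 4-day replicate 2, and the 4-week call without control replicate 1 or 4-week replicate 1.

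Irf9, the DNA-binding part of the complex, did not pass against control in the first 12 hours. It read 5.91, 6.27, 6.30, 6.28 and 6.05 in control, 6.40, 6.35 and 6.01 at 1 hour, 6.14, 5.88, 5.91 and 6.17 at 6 hours and 6.17, 6.23, 6.42 and 6.00 at 12 hours. These groups overlapped, with changes against control of 0.09, -0.14 and 0.04. At 24 hours Irf9 ranged from 6.13 to 7.37 with a median of 6.68, a rise of 0.51 ± 0.18 (SE) with an adjusted p of 0.0248. Its 2 highest values, 7.29 and 7.37, belonged to 24-hour replicates 9 and 10. Without the 3 arrays with Xist signal the rise was 0.34, with an adjusted p of 0.12.

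Irf7, the factor that amplifies type I interferon production, read 6.51, 6.26, 6.51, 6.36 and 6.63 in control, 5.81, 5.99, 5.94 and 5.86 at 6 hours and 5.69, 5.01, 5.16 and 5.63 at 12 hours. Every 6-hour and 12-hour array lay below every control array, a pattern that 15.1% of all genes showed at 6 hours and 13.3% at 12 hours. The change was -0.55 at 6 hours, where it did not pass, and -1.08 ± 0.30 (SE) at 12 hours, with an adjusted p of 0.0047 that held under each alternative tried. Irf7 was still lower at 48 hours (-0.90, adjusted p = 0.0201) and at 3 days (-1.08, adjusted p = 0.00387). At 24 hours it ranged from 4.51 to 6.60 with a median of 5.92, a fall of 0.64 (adjusted p = 0.0389) that was lost without the 3 arrays with Xist signal, where it was -0.36 with an adjusted p of 0.187.

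Among the Ifit genes, Ifit1 was lower than control at 4 times. It read 5.33, 5.75, 5.59, 5.97 and 5.86 in control, 4.23, 3.53, 3.85 and 4.41 at 12 hours, 4.66, 3.92, 4.57 and 4.15 at 48 hours and 3.61, 3.23, 4.55 and 3.99 at 3 days. All arrays at these times lay below all control arrays. Of all genes, 13.3% did so at 12 hours, 11.2% at 48 hours and 12.2% at 3 days. The change against control was -1.56 ± 0.52 (SE) at 6 hours (adjusted p = 0.0255) and -1.70 at 12 hours (adjusted p = 0.011). The 6-hour call was lost without 6-hour replicate 2. The change was -1.37 after 48 hours (adjusted p = 0.041) and -1.85 after 3 days (adjusted p = 0.00446). The 48-hour call was lost without any single array of the control or 48-hour group other than 48-hour replicate 1. At 24 hours 8 of the 11 arrays read 5.15 to 5.72, near control, and replicates 1, 9 and 10 read 4.00, 3.71 and 3.95.

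Ifit3 read 5.75, 5.59, 5.62, 5.82 and 5.50 in control, below the 3 arrays at 1 hour and above the arrays at 6 hours and at 12 hours, which read 4.98, 4.37, 4.58 and 4.70. Of all genes, 11.3% lay wholly above control at 1 hour, 15.1% wholly below it at 6 hours and 13.3% at 12 hours. Neither the 6-hour nor the 12-hour change of Ifit3 passed the test, with -0.89 at 6 hours and -0.996 at 12 hours. Without the 7 doubted arrays both were called, at -0.86 (adjusted p = 0.021) and -0.97 (adjusted p = 0.0073). Ifit2, the third family member, read 3.42 to 4.32 in control and 3.49 to 3.67 at 6 hours. These values lie near the median control level over all genes of 4.04. Its higher values came later, with single arrays at 5.67 at 3 days and 5.62 at 4 days.

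Rsad2, the antiviral enzyme viperin, read 6.61, 6.65, 6.64, 6.76 and 6.50 in control, 7.12, 7.18 and 6.68 at 1 hour, 6.55, 5.95, 6.44 and 6.26 at 6 hours and 5.27, 5.22, 5.59 and 5.98 at 12 hours. Its lowest group was thus 12 hours and not 6 hours. The fall against control was 1.12 ± 0.38 (SE) at 12 hours, with an adjusted p of 0.0198, and did not pass without 12-hour replicate 1 or 2. The other Rsad2 probe sets gave -0.99 (adjusted p = 0.0777) and -0.43 (adjusted p = 0.213) there.

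Oasl1 read 5.97, 6.04, 6.07, 6.34 and 6.06 in control, 5.31, 4.91, 5.31 and 4.98 at 12 hours, 5.40, 5.11, 5.41 and 5.12 at 48 hours and 5.11, 5.01, 5.67 and 4.88 at 3 days. All arrays of these times and of 6 hours lay below all control arrays. Of all genes, 15.1% did so at 6 hours, 13.3% at 12 hours, 11.2% at 48 hours and 12.2% at 3 days. The fall was 1.11 ± 0.30 (SE) at 6 hours, with an adjusted p of 0.00473, a call kept under each alternative tried. It was 0.97 at 12 hours (adjusted p = 0.0118), 0.84 at 48 hours (adjusted p = 0.0309) and 0.93 at 3 days (adjusted p = 0.0128). Oasl2, its active relative, read 2.79 to 3.45 in control and 2.48 to 2.87 at 12 hours, below the median control level over all genes, and was called in no single comparison.

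Usp18 had its highest values at later times. It read 5.94, 6.27, 5.98, 6.57 and 6.41 in control, below all 3 arrays at 1 hour, yet the change of 1.01 did not pass. Of all genes, 11.3% lay wholly above control at 1 hour. The 6-hour and 12-hour changes of -0.88 and -0.93 did not pass either, but were called without the 7 doubted arrays, with adjusted p of 0.00847 and 0.00446. At 2 weeks Usp18 read 8.27 and 8.32, a rise of 2.06 ± 0.61 (SE) with an adjusted p of 0.0482, the one member called at a time when 3.41% of all genes were. That call rests on 2 arrays and was lost without either of them, or without any control array other than replicate 4. Without the doubted arrays Usp18 read 7.34 to 7.71 at 1 week and 6.96 to 7.82 at 4 weeks, changes of 1.24 (adjusted p = 0.00211) and 1.16 (adjusted p = 0.0153), and it was also called as higher at 24 hours and 4 days. With all arrays the 1-week and 4-week changes were 0.43 and 0.64 and did not pass.

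**Figure D3:**
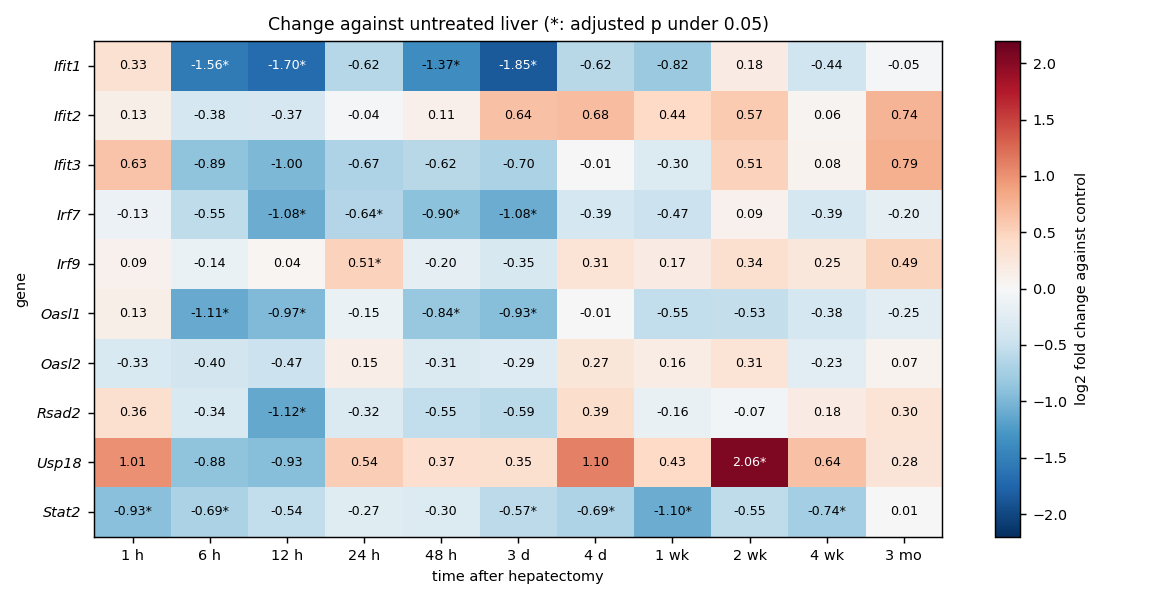
Log2 fold change against untreated liver of the 10 genes (rows) at the 11 times (columns), with blue for lower and red for higher; an asterisk marks adjusted p under 0.05. Ifit1, Irf7 and Oasl1 are each marked as lower at 12 hours, 48 hours and 3 days. At 24 hours Irf7 is marked as lower and Ifit1 and Oasl1 are not. The rises marked are Irf9 at 24 hours and Usp18 at 2 weeks.

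Against control, 2 members were called at 24 hours (31.7% of all genes), 3 at 48 hours (30.8%) and 4 at 3 days (39.4%). Without control replicate 1 or 5 none was called at 24 hours, and without control replicate 3 or 4 or 24-hour replicate 1, 9 or 10 only Irf9 was. Without the 7 doubted arrays neither Irf7 nor Irf9 was called at 24 hours, and Usp18 was, as higher by 0.65 (adjusted p = 0.0494). Without 48-hour replicate 2 none was called at 48 hours, where leaving out control replicate 4 or 48-hour replicate 4 left 1. The fall of Stat2 at 3 days was lost without 3-day replicate 1, 2 or 3 or control replicate 1, 2 or 3. Ifit2 was called as higher at 3 days without 3-day replicate 2 or 4, at 4 days without 4-day replicate 1 or 4, at 3 months without 3-month replicate 2, and at each of these times without control replicate 4. At 3 days the 4 were Ifit1, Irf7, Oasl1 and Stat2, and none of the 4 passed with the hybridization controls as a covariate. The sizes there were -2.45 for Ifit1 and -1.61 for Irf7, larger than without the covariate, and their adjusted p-values were 0.134 and 0.0811. At 3 months limma called none of the 10, against 30.1% of all genes, and 2, Ifit2 and Irf9, had an unadjusted p under 0.05.

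The partial return fell between 12 and 24 hours. All 10 genes had a higher mean at 24 hours, by a median of 0.55 against 0.01 for all genes, and 2 rose, where 9.72% of all genes were called and 5.13% rose. Usp18 ranged from 5.44 to 7.56 at 24 hours with a median of 6.97, against 6.14, 5.16, 4.70 and 5.19 at 12 hours, a rise of 1.47 ± 0.43 (SE) with an adjusted p of 0.0192. Oasl1 ranged from 5.14 to 6.47 with a median of 6.00, a rise of 0.81 ± 0.26 (SE) with an adjusted p of 0.0383. For each of the 10 genes the 2 groups overlapped, as for most genes: 2.34% of all genes lay wholly higher at 24 hours and 2.22% wholly lower.

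The size of the return and the number of genes called changed with the arrays left out, at 12 as well as at 24 hours. The 7 doubted arrays include control, 1-week and 4-week arrays, which enter this step only through the shared estimate of spread. Their part was not tested apart from that of the 24-hour arrays. The shares of all genes given above belong to the fit with all arrays and not to the refits that follow. Without the 3 arrays with Xist signal 4 genes rose, and without the 7 doubted arrays 7 did. Ifit1 then rose from a mean of 4.00 to 5.50 (adjusted p = 0.000187), Irf7 by 0.79 (adjusted p = 0.00126), Rsad2 by 0.89 (adjusted p = 0.0245), Ifit3 by 0.75 (adjusted p = 0.0316) and Oasl2 by 0.72 (adjusted p = 0.0135). Leaving out 12-hour replicate 2, 3 or 4 instead left none called, and leaving out 12-hour replicate 1 or 24-hour replicate 2, 6 or 11 left 1. The other Stat2 probe set rose in this step by 0.51 (adjusted p = 0.0362), where the brighter one gave 0.28 and did not pass.

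From 24 to 48 hours Irf9 fell by 0.71 ± 0.19 (SE; adjusted p = 0.0192, 5.48% of all genes called), and it did not pass without the 3 arrays with Xist signal, or without 48-hour replicate 2, 3 or 4. Without the 7 doubted arrays, which include those 3, it was called (-0.57, adjusted p = 0.0405), and so were Ifit1 (-1.18), Oasl1 (-0.73) and Irf7 (-0.61). From 6 to 12 hours limma called none of the 10 (9.38% of all genes), and none had an unadjusted p under 0.05. From 3 to 4 days 9 of the 10 means were higher, by a median of 0.69 against -0.003 for all genes. None was called by limma, nor was any other gene on the array. An unadjusted p under 0.05 was met by 6 of the 10, a share that was not counted over all genes, so it is not read as a rise. The remaining 5 steps gave none of the 10 by limma. Of all genes they called 0.044% from 48 hours to 3 days, 0.022% from 4 days to 1 week, 0.594% from 1 to 2 weeks, 0.0055% from 2 to 4 weeks and 2.39% from 4 weeks to 3 months. Between 0 and 2 of the 10 genes had an unadjusted p under 0.05 in each.

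Ordered by mean level over the 12 groups, no gene had 2 neighbouring groups that differed, so the order itself is not resolved. The highest mean was at 1 hour for Ifit1 and Oasl1, at 2 weeks for Usp18, Irf7 and Oasl2, at 3 months for Ifit2, Ifit3 and Stat2, at 4 days for Rsad2 and at 24 hours for Irf9. The lowest mean was at 12 hours for Ifit3, Oasl2, Rsad2 and Usp18, at 6 hours for Ifit2 and Oasl1, at 3 days for Ifit1, Irf7 and Irf9, and at 1 week for Stat2. The span from lowest to highest was 2.99 for Usp18, 2.19 for Ifit1 and 0.77 for Oasl2.

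The spread of these genes between arrays of one group was larger in several later groups, a difference that was not tested. The median SD of the 10 genes was 0.19 at 1 hour, 0.17 at 6 hours and 0.23 at 12 hours, where the median of all genes was 0.13 to 0.16. It was 0.51 at 24 hours, 0.61 at 4 days, 0.81 at 1 week, 0.55 at 4 weeks and 0.52 at 3 months, where the median of all genes was 0.20 to 0.27. At 4 days 3.97% of all genes had an SD above the members' median.

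Single arrays carried much of this spread. Replicate 4 of the 1-week group and replicate 1 of the 4-week group were the lowest of their groups for all 10 genes. At 1 week Usp18 read 7.71, 7.61, 7.34 and 4.02, and at 4 weeks Ifit1 read 3.44, 5.64, 6.21 and 5.77. At 3 months replicate 3 was the highest for 9 of the 10 genes, as for Ifit3, which read 5.90, 5.70 and 7.75. At 4 days replicates 2 and 3 held the highest value of 9 genes, with Rsad2 at 6.53, 7.86, 7.31 and 6.39. Without the doubted arrays the median SD was 0.24 at 1 week, 0.17 at 4 weeks and 0.33 at 24 hours, and it remained 0.61 at 4 days and 0.52 at 3 months, where no array was left out.

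**Figure D4:**
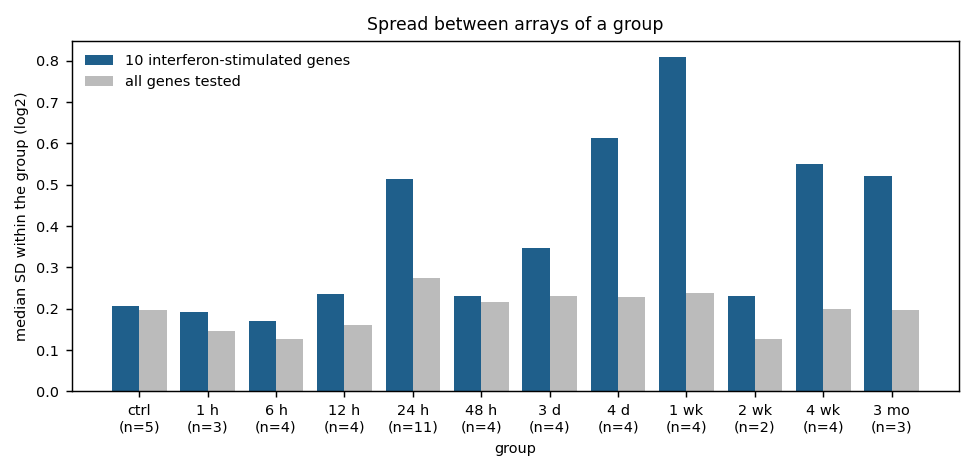
Median SD between arrays of a group (vertical axis, log2 units) for the 10 interferon-stimulated genes and for all 18195 genes, in the 12 groups (horizontal axis). The bars of the 10 genes reach 0.81 at 1 week and 0.61 at 4 days, and 0.17 at 6 hours.

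Other genes of the pathway were counted from lists. Of 37 further interferon-stimulated genes measured, 8 fell and 1 rose from 1 to 6 hours, where 6.44% of all genes fell and 4.45% rose, with a median change of -0.36 against -0.02 for all genes. Ddx58, a sensor of viral RNA, fell by 1.61, Rtp4 by 1.54 and Xaf1 by 1.29, while Tor3a rose by 1.63 (adjusted p = 0.00125). Without the 7 doubted arrays, a refit to which these shares of all genes do not belong, the counts were 14 and 2. Against control the same list gave 4 up and 8 down at 6 hours, where 11.4% of all genes rose and 10.5% fell. It gave 5 up and 6 down at 12 hours, where 17.9% of all genes rose and 12% fell, and the 11 of 37 called there are near the 29.9% of all genes called. Mx1, a classical marker, had group means between 2.62 and 3.02, below the median control level, and was called in none of these comparisons.

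Upstream genes were counted in the step from 1 to 6 hours, where 10.9% of all genes were called. Of 14 receptor and JAK-STAT genes, Socs3 (2.71) and Ptpn2 (2.01), both known to restrain this signalling, rose, and the receptor kinase Tyk2 fell by 0.73. Of 12 genes for nucleic acid sensing and interferon induction, Myd88 (1.65) rose and Irf3 and Trim56 (-1.19) fell. Irf3, the factor that first induces interferon, read 8.16 to 8.32 at 1 hour and 7.40 to 7.56 at 6 hours, a fall of 0.74 ± 0.17 (SE; adjusted p = 0.00145), and it rose again by 0.70 from 6 to 12 hours (adjusted p = 0.00139). Of 7 interferon genes limma called none in the step and none had an unadjusted p under 0.05. Ifnb1 had group means between 3.30 and 3.73, below the median control level over all genes.

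Of 22 genes known as targets of interferon gamma, 6 fell and none rose from 1 to 6 hours (6.44% of all genes fell and 4.45% rose), with a median change of -0.51, among them the immunoproteasome subunit Psmb9 (-1.87), Gbp7 (-1.53) and Igtp (-1.33). From 12 to 24 hours 6 rose, led by Gbp6 (2.13), and 1 fell, Iigp1 (-0.93), where 5.13% of all genes rose and 4.58% fell. Irf1, a factor that both interferon types induce, was lower than control at 6 hours (-0.91, adjusted p = 0.00596) and at 12 hours (-0.80, adjusted p = 0.0132). Its change from 1 to 6 hours was -0.14 and did not pass (adjusted p = 0.898). At 1 hour its change against control was -0.77, which did not pass either (adjusted p = 0.0948). No test compared the lists.

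The 5 genes outside the 10 whose 12 group means followed the members' average most closely, of 5129 with group means spanning at least 1 log2 unit, were Rtp4 (Pearson r = 0.96), Rnf213 (0.94), Gbp6 (0.91), Tbcel (0.91) and Gbp3 (0.91). All points share the same arrays, and the correlation is a description over 12 groups. Among the members themselves, r with that average ran from 0.20 for Stat2 and 0.61 for Ifit2 to 0.91 for Ifit1. The average includes each member, which raises these values, so they are not comparable with those of the genes outside.

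**Figure D5:**
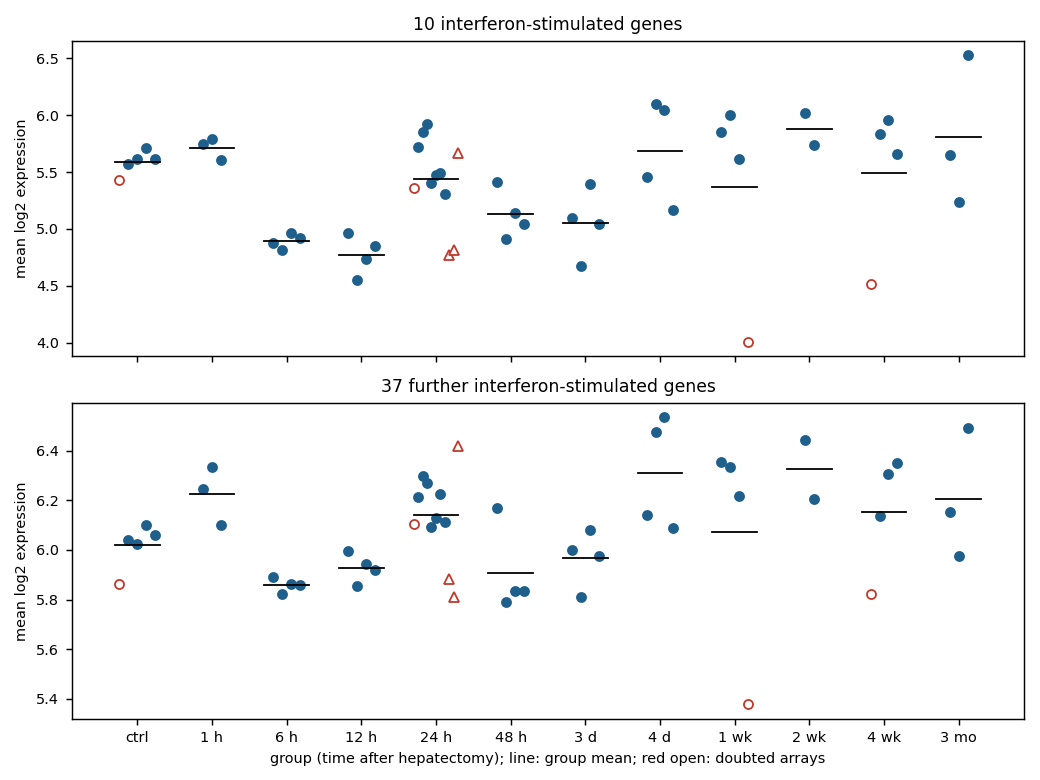
Mean log2 expression in each array (vertical axes) of the 10 genes, upper panel, and of the 37 further interferon-stimulated genes, lower panel, by group. Lines are group means and red open symbols are the doubted arrays. The arrays at 6 hours lie between 4.82 and 4.96 in the upper panel and those at 1 hour between 5.61 and 5.79.

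Markers of other cell types moved at some of the same times. The summed log2 values of 11 Kupffer cell markers ranged from 46.2 to 56.0 in control, from 62.6 to 74.5 at 1 hour, from 59.8 to 61.9 at 6 hours, from 57.8 to 63.6 at 12 hours and from 61.7 to 78.1 at 24 hours. From 1 to 6 hours limma called none of the 11, 3 had an unadjusted p under 0.05, and their median change was -0.55. From 12 to 24 hours 5 rose, where 5.13% of all genes did, with a median change of 1.10. No Kupffer marker was at 0, and Timd4 alone had a mean over all arrays, 3.87, below the median control level. Of 7 plasmacytoid dendritic cell markers 1 fell in the step from 1 to 6 hours, where 6.44% of all genes did, and their summed values ranged from 40.2 to 40.5 at 1 hour and from 39.7 to 40.2 at 6 hours. The sums of 5 B cell markers ranged from 23.4 to 26.7 in control, 23.5 to 25.8 at 1 hour, 22.3 to 22.8 at 6 hours and 20.4 to 21.9 at 12 hours. Of these 5, none was called by limma from 1 to 6 hours, and Ighm (mean 5.74 against 7.94) and Cd22 (5.04 against 5.75) were lower than control at 12 hours. The sums of 7 stellate cell markers ranged from 46.8 to 47.1 at 1 hour and from 44.2 to 46.3 at 6 hours, and those of 7 neutrophil markers from 28.0 to 29.0 in control, 29.3 to 35.3 at 1 hour and 33.7 to 37.3 at 6 hours. From 1 to 6 hours limma called none of the stellate or neutrophil markers. Sums at 1 hour and at 6 hours were 42.0 to 43.3 and 44.7 to 48.1 for 7 sinusoidal endothelial markers. For 4 cholangiocyte markers they were 17.1 to 17.8 and 18.1 to 18.9. They were 39.9 to 42.7 and 40.7 to 42.55 for 8 monocyte and macrophage markers. For 6 dendritic cell markers they were 24.2 to 26.4 and 24.4 to 25.8, and for 8 T and NK cell markers 31.0 to 31.8 and 30.8 to 30.9. The part of these cells in the members' changes was not tested.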

How the data were processed

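Values were the deposited log2 expression values of 45101 probe sets in 52 arrays, made by the authors with RMA in oligo 1.52.0, per the submitters' processing notes. The background correction and scaling to a common distribution in RMA compress changes of dim genes. Probe sets with 1 annotated gene (34958) were kept, and of several for one gene the brightest on average was taken, giving 18195 genes. One group-means model over all arrays was fitted with limma 3.58.1 in R 4.3.3 and moderated by its empirical Bayes step. It gave 11 comparisons with control and 10 between neighbouring times, each Benjamini-Hochberg adjusted over all genes. The script was tested on simulated data. The number of arrays per group limits the precision.

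The 10 genes and all lists were chosen with earlier results of these data known. All 10 genes are named. Of a list and comparison, up to 3 called genes with the largest change and the largest in the rarer direction may be named, and Irf1, Irf3, Mx1 and Ifnb1 are given. Isg15 was not analysed here. The alternatives were 13 settings, the other probe sets of Rsad2 and Stat2, and leaving out each array in turn.

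Replicate numbers recur across groups, but nothing in the labels ties them to a shared animal or day. Deviations from the group means correlated with a median of -0.003 for same-numbered pairs and 0.005 for others, so no pairing was used.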

Additional observations from a re-analysis of the deposited data

Results flagged for a closer look

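The 10 genes in the 8 groups of 4 to 10 arrays gave 80 sets of values, and in 9 of them one array lay far from the others by Dixon's criterion, which chance alone meets in about 1 of 20 sets. The sets share arrays and are not independent. A pair of arrays accounts for 5 of them. Replicate 1 of the 4-week group had Ifit3 at 4.31, Rsad2 at 5.51 and Stat2 at 4.46, where the other arrays of the group read 6.08 to 6.41, 7.15 to 7.33 and 5.22 to 5.28. Replicate 4 of the 1-week group had Rsad2 at 5.08 and Usp18 at 4.02, where the others read 6.78 to 7.06 and 7.34 to 7.71.

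The other 4 were single values. Oasl1 read 6.34 in control replicate 4, and 5.29 in 6-hour replicate 3. Stat2 read 4.84 in 6-hour replicate 3. Usp18 read 5.68 in 3-day replicate 2, against 6.83 to 6.99 in the other arrays at 3 days.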

How the results depend on the processing

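Over all 210 single-gene results, 4392 values under the alternatives stayed on the same side of the threshold, 99 passed it anew and 160 no longer passed. None changed sign where either value passed, and sign changes among values that did not pass were not counted. Most of these results had not passed to begin with. For the 28 that had, 485 of 645 values under the alternatives still passed, and 2 of the 28 passed under every alternative. Counts of the 10 genes called moved as follows, and the cause of the changes was not tested. The share of all genes called under each alternative is not given here, so these counts cannot be set against it. In the report these counts against control were 1 at 1 hour, 3, 4, 2 and 3 in the groups from 6 to 48 hours, 4 at 3 days, 1 in each group from 4 days to 4 weeks and 0 at 3 months. They were 4 from 1 to 6 hours, 2 from 12 to 24 hours and 1 from 24 to 48 hours.

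With the replicate number as a block, counts against control became 0 for 24 hours and 2 weeks, and steps became 4 from 12 to 24 hours and 2 from 24 to 48 hours; no other count moved enough to name, and the numbers do not pair the arrays. With the compared groups fitted alone, counts against control were 3 for 1 hour, 7 for 6 hours, 8 for 12 hours, 1 for 24 hours, 5 for 48 hours and 2 for 4 days, and steps were 7 from 1 to 6 hours, 2 from 6 to 12 hours and 0 from 24 to 48 hours; the F test was not run there. At adjusted p under 0.01, counts against control were 0 for 1, 24 and 48 hours, 4 days, 2 weeks and 4 weeks, 1 for 6 and 12 hours and 2 for 3 days, and the steps from 1 to 6, 12 to 24 and 24 to 48 hours gave 0. Array weights gave 8 for 6 and 12 hours, 1 for 24 hours, 2 for 1 hour, 4 days, 1 week and 4 weeks, and 2, 5 and 2 in the steps from 6 to 12, 12 to 24 and 24 to 48 hours. The hybridization control covariate gave 1 for 24 and 48 hours and 0 for 1 hour and for each group from 3 days to 4 weeks. The Gapdh covariate gave 0 for 1 hour, 24 hours and 4 weeks, 2 for 12 hours and 3 days, 1 for 48 hours and 1 from 12 to 24 hours.

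The mean of probe sets gave 0 for 4 days and 2 weeks, and the trended and robust prior 0 for 2 weeks. Median centring gave 1 for 24 hours, 48 hours and 3 months, and moved the median of all genes to 0.15 at 1 week, 0.11 at 4 days and 0.11 at 3 months. Quantile normalization gave 7 for 3 days, 3 for 1 week, 2 for 4 days, 0 for 2 weeks and 1 for 3 months. Without the 3 arrays with Xist signal counts were 0 for 24 hours, 4 from 12 to 24 hours and 0 from 24 to 48 hours. Without the 7 doubted arrays they were 6 for 6 hours, 1 for 24 hours, 2 for 4 days, 2 for 1 week, 1 for 3 months, 7 from 12 to 24 hours and 4 from 24 to 48 hours. For 4 weeks the count stayed at 1, but the gene was Usp18, as higher, and the fall of Stat2 was no longer called.

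Leaving out each array in turn gave ranges against control of 0 to 1 for 1 hour, 2 weeks, 4 weeks and 3 months, 0 to 2 for 24 hours and 4 days, 0 to 3 for 48 hours, 1 to 2 for 1 week, 2 to 3 for 6 hours, 3 to 4 for 12 hours and 3 to 5 for 3 days. For the steps it gave 0 to 3 from 1 to 6 hours and from 12 to 24 hours, and 0 to 1 from 24 to 48 hours. A 2-week group left with 1 array is assumed to vary like the others. The F test called 8 to 10 genes with 1 array left out. Signals of Ifit2 and Oasl2 near or below the median level of all genes limit what their changes can show.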
